A study of Mus musculus with 12 samples.

Results

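The serous and mucous glands of the back of the tongue make distinctive secretions. In RNA-seq of tongue tissue, 10 genes of salivary secretory products were followed: Lipf, Amy1, Car6, Ltf, Pip, Sbpl, Dcpp1, Dcpp2, Dcpp3 and Muc5b. They are 10 of 32498 named gene rows. The genes, and the 3 libraries in which they are described most closely, were chosen on their measured levels: a library counted as rich in gland transcripts where Lipf exceeded 1000 FPKM (fragments of reads scaled to exon length and library size, the unit of the deposited values). Vehicle 3, Vehicle 5 and GA 2 met that rule. The lowest of them had Lipf at 8765 FPKM, and the highest library outside the rule, GA 1, had 0.508 FPKM. High levels in those 3 libraries are therefore a description and were not tested.

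All animals were C57BL/6 mice, bought at 5 weeks of age, that drank the carcinogen 4NQO (4-nitroquinoline 1-oxide) at 100 µg/mL for 16 weeks. From week 4, GA mice received gallic acid, a plant phenol, at 100 mg/kg by gavage 5 times a week and Vehicle mice the carrier alone, and each group has 6 libraries. The labels describe the tissue as tongue, tumor and tumor-associated, without saying which region of the tongue was taken, and no untreated mice are among the groups. Each library was taken as 1 mouse, which the labels do not state, so p-values measure the spread between these samples. Depth, worked out from the step size of low values, was 18040204 to 25192588 reads a library. Reads of Y-linked genes were found in Vehicle 1 to 4 and GA 1 and in none of the others. The 3 libraries rich in gland transcripts thus included 1 with such reads (Vehicle 3) and 2 without.

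Von Ebner glands are small salivary glands that open into the trenches around the circumvallate and foliate papillae, where they rinse the taste buds. Their serous cells release enzymes, such as lingual lipase and amylase, and proteins that bind metals, bacteria or small molecules. Mucous glands lie beside them in the posterior tongue, and their cells release gel-forming mucins, of which Muc5b is a main one. Demilunes are caps of serous-type cells on mucous end pieces of salivary glands, and the Dcpp genes are named for a protein of such cells and of the parotid gland.

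The promoters of the most abundant pair of products, Lipf and Sbpl, and of the Dcpp genes are shown so that the likeness of the Dcpp copies can be seen. Each is the 100 bases before the RefSeq start of the gene, 5′ to 3′ on the gene's own strand, in GRCm38.p6, with the letters TATAA in capitals.
Lipf, chr19:33961148-33961247, plus strand: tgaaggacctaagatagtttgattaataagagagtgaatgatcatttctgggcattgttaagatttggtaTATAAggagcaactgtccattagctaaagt
Sbpl, chr17:23955274-23955373, minus strand: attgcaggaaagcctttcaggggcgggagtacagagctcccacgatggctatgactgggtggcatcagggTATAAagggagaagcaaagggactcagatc
Dcpp1, chr17:23880776-23880875, plus strand: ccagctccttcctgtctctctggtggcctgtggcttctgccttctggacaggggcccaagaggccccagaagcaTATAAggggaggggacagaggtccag
Dcpp2, chr17:23898622-23898721, plus strand: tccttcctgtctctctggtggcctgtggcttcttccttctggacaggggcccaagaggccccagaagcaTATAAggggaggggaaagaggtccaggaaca
Dcpp3, chr17:23917358-23917457, plus strand: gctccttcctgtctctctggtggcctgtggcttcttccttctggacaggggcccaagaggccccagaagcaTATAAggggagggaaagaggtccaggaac
The TATAA letters began 30 bases before the start in Lipf and in Sbpl, 26 in Dcpp1, 31 in Dcpp2 and 29 in Dcpp3. The same letters stood in the windows of Pip, 28 bases before its start, and in 1 of 2 windows of Amy1, 63 bases before its start. They were not in the windows of Car6 or Ltf. Of the 9 members with a RefSeq promoter, 7 held the letters on the gene's strand in at least 1 window, whereas 7.48% of 32851 windows of the same length did. Members were counted by gene and the others by window, and the Dcpp genes, which resemble each other, are among the 7. Enrichment was not tested. Muc5b was not matched. GENCODE M21 places the start further upstream than RefSeq for some genes, by 61 bases for Lipf, 197 for Car6, 17842 for Dcpp2 and 28949 or 31937 for the Amy1 windows. Those windows therefore lie partly or wholly inside the GENCODE gene.

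The Dcpp windows were near copies of each other, with 96.1% identity between Dcpp2 and Dcpp3, 90.4% between Dcpp1 and Dcpp3 and 88.6% between Dcpp1 and Dcpp2. Their longest transcripts were 95.4% identical between Dcpp2 and Dcpp3 and 84.5% between Dcpp1 and Dcpp2. Of all 50-base stretches, 46.5% of those in Dcpp1, 43.0% in Dcpp2 and 46.1% in Dcpp3 also occurred in another gene of the cluster. The study counted reads that map to 1 place, so the levels of the 3 genes, and the split between them, are uncertain. Sbpl shared 39.0% of its 50-base stretches with its neighbour Sbp or the Dcpp genes. All of these genes lie on chromosome 17 of GRCm38: Dcpp1 at 23880876 to 23882853, overlapping the annotated span of Dcpp2 (23880880 to 23900788), then Dcpp3 at 23917458 to 23919441 and Sbpl at 23953084 to 23955274.

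Lipf encodes the acid-stable lipase of the tongue and stomach, which begins fat digestion, and was the most abundant of the 10 products in each of the 3 libraries. It lies on chromosome 19 at 33961187 to 33976810. Lipf was at 20091 FPKM in Vehicle 3, 8765 in Vehicle 5 and 25476 in GA 2, a range of 2.91-fold. Its reads alone made up 2.79% of all reads in Vehicle 3 (95% Wilson interval 2.79 to 2.80%), 1.22% in Vehicle 5 and 3.54% in GA 2. Intervals here and below cover counting error only. The 9 other libraries held 34 Lipf reads in all, the 4 with none being Vehicle 1, GA 4, GA 5 and GA 6.

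**Figure D1:**
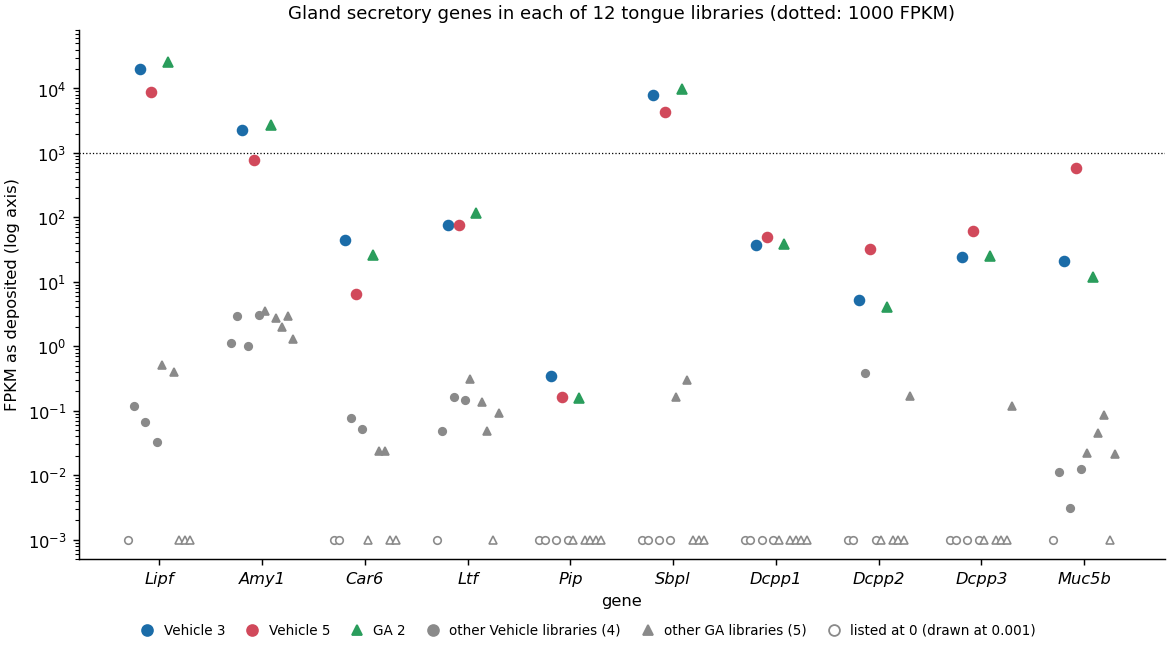
Level of each of the 10 genes (FPKM as deposited, log axis) in each library, with Vehicle libraries as circles, GA libraries as triangles and open symbols for values listed at 0. Vehicle 3, Vehicle 5 and GA 2 lie above the other 9 libraries for every gene, which the choice of libraries and genes built in, and Vehicle 5 is above Vehicle 3 and GA 2 for Muc5b and the Dcpp genes, most of all for Muc5b (594 against 21.1 and 11.8 FPKM).

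Amy1, the salivary amylase that splits starch (chromosome 3, 113555710 to 113606699), followed Lipf at 2230 FPKM in Vehicle 3, 773 in Vehicle 5 and 2745 in GA 2. It was the only member above 0 in all 9 other libraries, at 1.01 to 3.57 FPKM with a median of 2.74. Exons of Rnpc3, a spliceosome gene, cover 32.7% of the Amy1 exon length in the annotation used here, and Rnpc3 was at 1.35 to 2.38 FPKM in every library. The part of Rnpc3 reads in the Amy1 level was not tested. The pancreatic amylases Amy2a5, Amy2a1 and Amy2b were listed at 0 in all 12 libraries.

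Car6, the secreted carbonic anhydrase of saliva that buffers acid (chromosome 4, 150187015 to 150201332), was at 45.05 FPKM in Vehicle 3, 6.39 in Vehicle 5 and 26.4 in GA 2. Of the serous products it varied most among these libraries, by 7.04-fold. The 9 other libraries held 7 Car6 reads in all and 5 of them held none.

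Ltf encodes lactoferrin, an iron-binding antibacterial protein of serous glands and of neutrophil granules (chromosome 9, 111019271 to 111042767). It was at 76.3 FPKM in Vehicle 3, 76.2 in Vehicle 5 and 119 in GA 2, the smallest spread of the serous products at 1.56-fold, and at 0 to 0.316 FPKM elsewhere. Because neutrophils also make lactoferrin, the other proteins of their granules were read beside it. Camp was at most 0.227 FPKM and Ngp at most 0.322 in any library, and Elane was listed at 0 in all 12. Other genes of that list were higher in some of the 3 libraries: Lcn2, which epithelium also makes, was at 9.82, 21.1 and 21.0 FPKM in Vehicle 3, Vehicle 5 and GA 2 against 1.13 to 10.7 elsewhere. Mmp9 was at 0.511, 15.8 and 2.17 FPKM against 0.0279 to 11.5, and Mmp8 at 0, 3.10 and 0.487 against at most 0.439, both chosen after their values were seen. The part of neutrophils in the Ltf level was not tested. The summed level of 12 neutrophil genes without Ltf, which S100a9 and S100a8 of the epithelium and of neutrophils dominate, was 1012 to 2001 FPKM in the 3 libraries and 213 to 2608 in the other 9.

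Sbpl, which resembles the spermine binding protein gene Sbp, was the second most abundant product, at 7955 FPKM in Vehicle 3, 4320 in Vehicle 5 and 9848 in GA 2. Outside these libraries only GA 1 (3 reads) and GA 3 (6 reads) had any Sbpl read. Sbp itself was at 17.8, 10.1 and 28.5 FPKM in the same order. Pip, the prolactin-induced protein of salivary and lacrimal secretions (chromosome 6, 41847535 to 41852065), was barely detected, with 18 reads in Vehicle 3, 8 in Vehicle 5 and 9 in GA 2. No Pip read was found in the 9 other libraries, where 3 reads would have been at most 0.0701 FPKM.

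The Dcpp genes differed from the serous products in that Vehicle 5 was the highest library for each. Dcpp1 was at 37.4 FPKM in Vehicle 3, 49.2 in Vehicle 5 and 39.3 in GA 2. Dcpp2 was at 5.24, 32.3 and 4.13 FPKM and Dcpp3 at 24.4, 60.7 and 25.1 FPKM in the same order. In the 9 other libraries Dcpp1 had no read, Dcpp2 had 6 reads in Vehicle 4 and 3 in GA 6, and Dcpp3 had 2 reads in GA 6.

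Muc5b (chromosome 7, 141839070 to 141873084), the mucous product, had the widest range of all. It was at 21.1 FPKM in Vehicle 3, 594 in Vehicle 5 and 11.8 in GA 2, so the highest was 50.4 times the lowest. These levels rest on 6856, 183012 and 4208 reads. The 9 other libraries held 69 reads in all, of which 30 were in GA 4, a library without a Lipf read.

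Set against Lipf in the same library, the main serous products kept similar proportions. Sbpl was at 39.6% of the Lipf FPKM in Vehicle 3, 49.3% in Vehicle 5 and 38.7% in GA 2, and Amy1 at 11.1%, 8.82% and 10.8%. Ltf was at 0.380%, 0.870% and 0.466%, and Car6 at 0.224%, 0.0730% and 0.103%. Muc5b was at 0.105% of Lipf in Vehicle 3 and 0.0462% in GA 2 but at 6.77% in Vehicle 5.

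**Figure D2:**
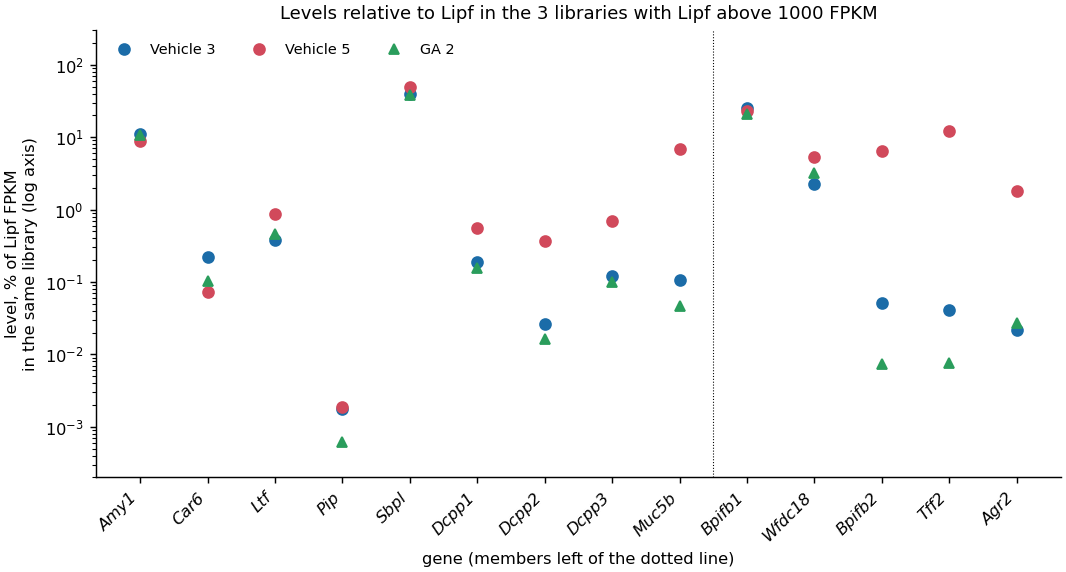
Level of each gene as a percent of the Lipf FPKM of the same library (log axis) in Vehicle 3, Vehicle 5 and GA 2, with members left of the dotted line and other gland genes right of it. Amy1, Sbpl and Bpifb1 lie close together in the 3 libraries, while Muc5b, Bpifb2, Tff2 and Agr2 are far higher in Vehicle 5.

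The 6 serous products summed to 30397 FPKM in Vehicle 3, 13941 in Vehicle 5 and 38214 in GA 2. They exceeded Muc5b by 1439-fold in Vehicle 3 and 3247-fold in GA 2, and by 23.5-fold in Vehicle 5. The mucins Muc19 and Muc6 had no row, so these ratios set the serous products against Muc5b only. Lipf was 65.9%, 59.7% and 66.5% of the summed FPKM of the 10 genes in Vehicle 3, Vehicle 5 and GA 2, and Muc5b was 0.0693%, 4.04% and 0.0307%. Counted as reads and not per length, Muc5b was 31.9% of the members' reads in Vehicle 5, since its exons span 14964 bases against 1411 for Lipf.

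Vehicle 5 was compared with the geometric mean of Vehicle 3 and GA 2. Muc5b was 37.6 times, Dcpp2 6.95 times, Dcpp3 2.45 times and Dcpp1 1.28 times that mean. All 6 serous members were below it, from 0.186 times for Car6 and 0.312 for Amy1 to 0.801 for Ltf. With 1 library on one side and 2 on the other, this is a description of these libraries.

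Vehicle 5 was also the highest of the 3 libraries for the leading 3 genes of the mucous list, while Vehicle 3 and GA 2 differed in order among them. Tff2, a trefoil peptide secreted with mucins, was at 1070 FPKM in Vehicle 5, 8.18 in Vehicle 3 and 1.94 in GA 2. Agr2, a disulfide isomerase needed to fold mucins, was at 157, 4.39 and 6.85 FPKM in the same libraries, and the secretory cell factor Creb3l1 at 29.96, 7.08 and 8.60. Bpifb2, a member of the BPI-fold family of secreted proteins chosen after its values were seen, was at 568, 10.3 and 1.90 FPKM although it stood among the serous genes. The leading genes of the serous list were split. Bpifb1, at 5027 FPKM in Vehicle 3, 2021 in Vehicle 5 and 5364 in GA 2, and Bpifa2, at 768, 196 and 818, were lowest in Vehicle 5 as Lipf was. Wfdc18, at 452, 463 and 819 FPKM, was not, and stood at 5.29% of Lipf in Vehicle 5 against 2.25% in Vehicle 3 and 3.22% in GA 2. Azgp1 (2.06, 2.86 and 4.27 FPKM) and Tcn2 (34.0, 38.8 and 29.7 FPKM), chosen after their values were seen, were also higher in Vehicle 5 than in Vehicle 3.

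**Figure D3:**
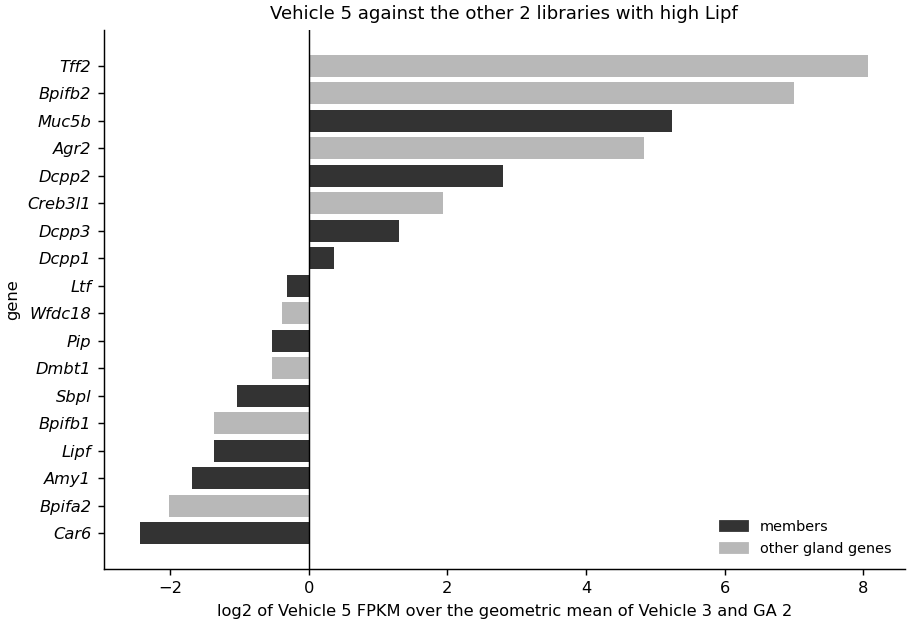
Log2 ratio of the Vehicle 5 level to the geometric mean of Vehicle 3 and GA 2 for the 10 members (dark bars) and 8 other gland genes (light bars). The bars run from -2.43 for Car6 to 8.07 for Tff2, with the Dcpp genes and Muc5b to the right of 0 and the serous members to the left.

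The 10 genes most like Lipf over the 12 libraries were taken by Pearson correlation of log2(scaled FPKM + 0.1) among 12157 other genes whose mean reached 1 FPKM. Bpifb1 (r = 0.997), Sbp and Dmbt1, a scavenger protein of saliva that binds bacteria, led them, followed by the proline-rich protein genes Prb1a, Prb1c and Prb1b with 2310057J18Rik, Gm4736, Sval2 and Gm5154, with r down to 0.989. Such values rest on 3 high libraries against 9 near 0, and carry no p. They do not show that 2310057J18Rik, Gm4736, Sval2 or Gm5154 is a gland product. Of the 10 genes, 2310057J18Rik was the most abundant after Bpifb1, at 2368 FPKM in Vehicle 3, 992 in Vehicle 5 and 2855 in GA 2. Among members, r with Lipf was lowest for Dcpp2 (0.92) and Muc5b (0.93).

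The label of the gland was checked against marker lists. Of 21 genes for other serous products that had a row, 13 reached a mean of 0.1 FPKM and were tested. Of these 13, 9 were higher in all 3 libraries than in any of the other 9, beside 2.93% of all 16852 genes tested. The libraries were chosen on Lipf. Genes near 0 in the other 9, such as Bpifb2, Dmbt1, Sbp and Azgp1, also passed that filter only through the 3. Nothing is therefore read from that count. By the same filter, 8 of 18 tested genes of acinar cells, 5 of 8 of ducts and 5 of 9 of mucous cells were higher in all 3, and nothing is read from these either. Krt18, a keratin of simple epithelia including ducts, was at 31.1, 47.3 and 44.5 FPKM in Vehicle 3, Vehicle 5 and GA 2 and at 0.665 to 2.25 elsewhere. Pigr, which carries IgA into saliva and was chosen after its values were seen, was at 29.0, 40.9 and 38.5 FPKM and at most 0.248 elsewhere.

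The 12 genes of exocrine pancreas and stomach, other organs with Lipf or amylase, summed to 0.347 to 1.20 FPKM in the 3 libraries and 0.0665 to 0.683 in the other 9. None of the 10 tested genes of taste receptor cells separated the 3 libraries from the 9, although the ion channel gene Trpm5, below the filter, was at 0.160 to 0.166 FPKM against at most 0.104. The list summed to 20.03 to 25.1 against 23.4 to 32.9 FPKM. Itpr3 alone, which leads that list, was at 9.42 to 16.2 against 14.8 to 24.4 FPKM, so the sum mostly follows 1 gene. The 9 genes of the major salivary glands found in the files summed to 12.1 to 23.5 FPKM in the 3 libraries and 3.63 to 17.8 in the others. Of 4 tested, 2 (Egf and Smgc) were higher in all 3 than in the other 9, beside 2.93% of all 16852 genes tested, and nothing is read from that count. Smgc, a sublingual gland product, was at 15.04 FPKM in Vehicle 5 and at most 0.231 in every other library. The kallikrein gene Klk1b26, the highest of the list, was at 13.3, 1.84 and 7.39 FPKM in Vehicle 3, Vehicle 5 and GA 2 and at 1.19 to 14.0 elsewhere. None of these lists tells von Ebner glands from other small serous glands of the tongue. The major salivary gland list, in which Prpmp5, Muc10 and Smr3b had no row, does not tell lingual from major salivary glands either. Salivary gland products is as far as the data name them, and the gland of origin was not tested.

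**Figure D4:**
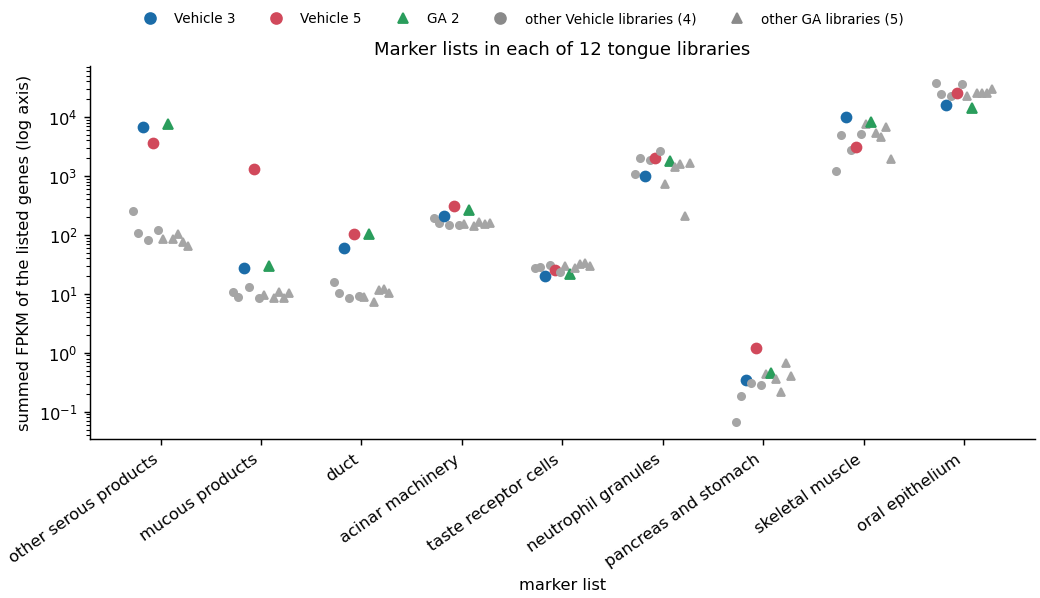
Summed FPKM (log axis) of 9 marker lists in each library, with Vehicle 3, Vehicle 5 and GA 2 in color and the others in gray. Other serous products and duct genes are higher in the 3 colored libraries, mucous products most of all in Vehicle 5 (1291 FPKM), and pancreas and stomach genes sum to at most 1.20 FPKM in any library.

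Some muscle and surface epithelium genes also separated these libraries. Of 8 skeletal muscle genes, 2 (Myh1 and Myh2) were higher in all 3 than in the other 9, beside 2.93% of all 16852 genes tested. The muscle list sums overlapped, at 3090 to 10036 against 1194 to 7524 FPKM. Myh1, a fast myosin heavy chain chosen after its values were seen, was at 937, 224 and 771 FPKM in Vehicle 3, Vehicle 5 and GA 2 and at 61.2 to 153 elsewhere. Krt4, a keratin of the oral surface, was the only 1 of 8 epithelium genes lower in all 3 than in the other 9, beside 364 of all 16852 genes tested. It was at 2505, 2103 and 936 FPKM against 2550 to 9101. Nothing is read from either count, since the libraries were chosen on Lipf. Krt14, of the basal layer, overlapped, at 2974, 7407 and 3249 against 1243 to 8326. The part of tissue sampled in the gland levels was not tested, and in bulk tissue fewer gland cells and less RNA per cell cannot be told apart.

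Traces in the 9 other libraries had another make-up. Amy1 gave 88.3% of the members' reads there and Lipf 1.96%, whereas in the 3 rich libraries Lipf gave 60.9% and Amy1 15.9%. Exons of Rnpc3 cover 32.7% of the Amy1 exon length, and the part of Rnpc3 reads in these Amy1 traces was not tested. For each 100000 reads in the 3 libraries, the 9 held 1.99 of Lipf and 2.10 of Sbpl, against 35.6 of Muc5b, 124 of Dcpp3, 224 of Car6, 344 of Amy1 and 346 of Ltf. Dcpp2 had the highest such value, 1438, from 9 trace reads, and Dcpp1 and Pip had no trace read. All members together were at most 308 reads in any of the 9 libraries, or 0.00145% of its reads. GA 1 and GA 3, the libraries with the most trace Lipf (15 and 13 reads), were also the only ones with trace Sbpl.

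GA was compared with Vehicle for each product. The members were high only in Vehicle 3, Vehicle 5 and GA 2. High libraries so few, and in both groups, leave the comparison unable to decide whether treatment moved these products. Nothing is concluded from a lack of calls. The limma fit covered 16852 genes whose mean FPKM reached 0.1, on log2(scaled FPKM + 0.1), a scale that understates changes of low genes. None of the 9 members tested was called at an adjusted p below 0.1 and a log2 change of at least 0.58, beside 0% of all genes; at an unadjusted p below 0.05 there were 0 members and 362 genes (2.15%). Pip was below the filter.

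Each of the 10 members had a lower mean with GA, with 2 rich libraries in the Vehicle group and 1 in the GA group, and the SE exceeded the difference for every tested member except Dcpp2. Lipf was at 0 to 20091 FPKM with Vehicle (median 0.0927) and 0 to 25476 with GA (median 0.198), so the groups overlapped. Its log2 difference was -2.23 (SE 4.02, limma adjusted p = 0.9999, exact permutation p = 0.855, n = 6 each). Y-linked reads were in 4 of 6 Vehicle and 1 of 6 GA libraries, and with their presence as a term Lipf differed by -3.58, Muc5b by -3.54 instead of -1.95 and Dcpp3 by -2.48 instead of -1.35, none of them called. Dcpp2 differed by -1.57 (SE 1.52) with the smallest exact permutation p of the members, 0.348, and by -0.48 without Vehicle 5 and -2.43 without GA 2 (limma). The median over the 9 members was -1.47, with a range of -2.23 to -1.09, and over all genes tested -0.00041. No gene of the 11 marker lists was called. Of the 13 tested genes for other serous products, 12 had a lower and 1 a higher mean with GA (median -0.81), and of 9 for mucous products 8 a lower and 1 a higher (median -0.68). Several of these genes, such as Bpifb1, Dmbt1 and Tff2, were near 0 outside the rich libraries. Their direction cannot be told apart from how those libraries split between the groups, and nothing is read from these counts.

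Without the 3 rich libraries, 3 members passed the filter, each with a small positive difference. Lipf differed by 0.42 (SE 0.66), Amy1 by 0.35 (SE 0.40) and Ltf by 0.16 (SE 0.48), with limma adjusted p of 0.976, 0.975 and 0.988 (4 Vehicle and 5 GA libraries). Their signs were opposite to those over 12 libraries, and none differed beyond its error. The Lipf value rests on 34 reads, of which 15 were in GA 1 and 13 in GA 3. The Amy1 value is subject to the Rnpc3 overlap given above.

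**Figure D5:**
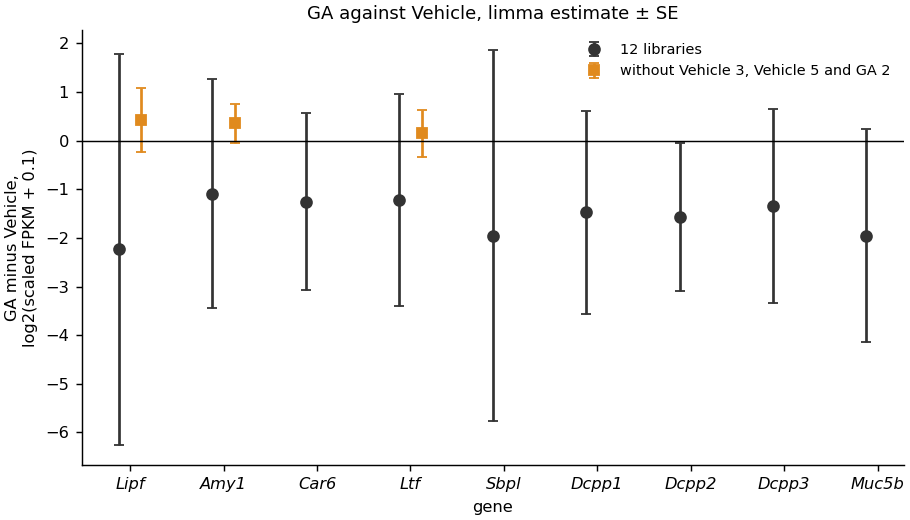
GA minus Vehicle in log2(scaled FPKM + 0.1) with the limma SE for the 9 members tested over 12 libraries (circles) and for the 3 that passed the filter without Vehicle 3, Vehicle 5 and GA 2 (squares). The circles lie between -2.23 and -1.09 with long bars, and the squares between 0.16 and 0.42.

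The balance of serous to mucous product, log2 of the 6 summed serous genes over Muc5b with 0.1 FPKM added to each, averaged 5.37 in the Vehicle group (SD 2.56) and 5.60 in the GA group (SD 3.05), with n = 6 each. By exact permutation, two-sided, the difference of 0.23 gave p = 0.771, and 3 of the 6 GA values exceeded the Vehicle median. Vehicle 3 (10.5) and GA 2 (11.7) were far above the other 10 libraries, at 3.56 to 5.23, among which Vehicle 5 was at 4.55. In the 9 libraries with traces the ratio is set mainly by Amy1 and by the added 0.1 FPKM.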

How the data were processed

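Bulk RNA-seq of mouse tongue was deposited as 1 table of FPKM per library. According to the study's methods, the authors used HISAT2 against mm10 and featureCounts on reads that mapped once, and deposited FPKM; per the labels, libraries were made with a SMARTER kit. Annotation and strand setting are not given in the sources used here. Of 55463 rows, 22965 had no gene name and stayed out of tests and scaling. Whole reads were recovered from the step size of low FPKM with GENCODE M21 exon lengths; 97.6 to 98.3% of low values were within 0.02 of a whole read.

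Scaling took the trimmed mean of M values without weights (factors 0.877 to 1.10), and limma 3.58.1 in R 4.3.3 was run with trend and Benjamini-Hochberg adjustment over genes whose mean deposited FPKM reached 0.1. The fit was first made with the filter on scaled FPKM (16847 genes) and changed to the deposited values, which the planned wording gives, after that result had been seen; both are reported. Single values were tested by exact two-sided permutation over 924 assignments. Python 3.11.15 with scipy 1.17.1 was used. The fit was also run on simulated normal values, unlike these members, which are high in a few libraries and near 0 in the rest. That run does not bear on the test of the members. Floors are 3 reads.

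Members and lists were chosen with earlier results of these data known. Named beside members were the 10 genes most like Lipf, the leading 3 of each of 11 lists, and paralogs. Same-numbered libraries did not deviate together (correlation -0.37 to 0.08 over 6 pairs). Spearman's rho between libraries of a group was 0.929 to 0.955, and none were duplicates. Alternatives are given at the end.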

Additional observations from a re-analysis of the deposited data

Results flagged for a closer look

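In groups of 6 libraries, 16 of 22 sets of values had a highest or lowest library whose gap to the next, divided by the whole range, exceeded Dixon's 95% critical value. Chance flags about 1 in 20 groups, and these genes and libraries were chosen for such values. GA 2 was the highest GA library for all 10 members, with a ratio of 1.00 for Lipf, Pip, Sbpl and Dcpp1, 0.999 for Amy1 and Car6, 0.997 for Ltf, 0.995 for Dcpp3, 0.993 for Muc5b and 0.959 for Dcpp2. In the Vehicle group, Vehicle 3 stood apart for Car6 (0.858) and Amy1 (0.654), and Vehicle 5 for Muc5b (0.964) and Dcpp2 (0.838). For the serous to mucous balance, Vehicle 3 stood apart with a ratio of 0.820 and GA 2 with 0.793.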

How the results depend on the processing

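No member was called under any of 23 alternative settings (lowest adjusted p 0.867), and direction held in 194 of 201 refits of a member. The exceptions were Lipf (0.42), Amy1 (0.35) and Ltf (0.16) without the 3 rich libraries, Lipf (0.11), Amy1 (0.35) and Sbpl (0.27) without Vehicle 3, and Sbpl (0.04) without Vehicle 5. Fits that keep the 3 rich libraries keep 2 of them with Vehicle and 1 with GA, and the members move together across libraries. The count of refits is therefore no measure of a stable direction, nor the lack of calls one of an absence of change. Without the 3 rich libraries, all 3 members that could be fitted changed sign. Leaving out 1 library at a time gave Lipf -5.07 to 0.11, Amy1 -2.79 to 0.35, Sbpl -4.62 to 0.27, Car6 -2.58 to -0.0020, Ltf -2.77 to -0.02, Dcpp1 -2.92 to -0.29, Dcpp2 -2.43 to -0.48, Dcpp3 -2.65 to -0.10 and Muc5b -3.04 to -0.16. Leaving out GA 2 gave the lowest value for each of these 9. The sex term gave -3.58 (Lipf) to -1.84 (Car6). Over all genes, 0 to 1 were called in these fits, the 1 being Gm25290 without Vehicle 4; the filter on scaled FPKM, added after the data were seen, left 0 called of 16847. Genes at an unadjusted p below 0.05 numbered 204 to 848, 848 without GA 6 and 807 without Vehicle 3. The replicate block left 0 members and 0 genes called, 240 genes below 0.05, and gave the serous to mucous balance 0.23 (exact permutation p = 0.812); the numbers were not shown to pair the samples, and no library matched its own number best. The balance was -0.10 with 1 FPKM added and -0.0086 with 0.01 added, and -0.98 to 1.25 with 1 library left out (exact permutation p 0.489 to 0.983), being -0.98 without GA 2 and 1.25 without Vehicle 3. It was also negative without Vehicle 1 (-0.09) and without Vehicle 4 (-0.11). Its sign therefore depends on these choices.

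By reads and not per length, Lipf was 64.8%, 43.9% and 65.6% of the members in Vehicle 3, Vehicle 5 and GA 2, and Muc5b 0.732%, 31.9% and 0.326%. After scaling, Lipf was at 22075, 7976 and 26252 FPKM. Levels of a few reads and of the Dcpp copies are the least certain values here.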
